A study of Mus musculus with 11 samples.

Results

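The mitosis genes are 41 genes that act between entry into mitosis and the separation of daughter cells, measured by RNA sequencing in macrophages of mice that carried Lewis lung carcinoma. They were chosen by name, from a list of known mitotic functions, but with earlier results of these data known, so counts of members are descriptions. All 41 are present in both deposited tables. They are 41 of the 35083 genes used in the genotype comparison and of the 35597 in the site comparison, and all 41 passed the filter on low reads, alongside 12830 and 14301 genes in all. Lewis lung carcinoma (LLC) is a transplantable mouse lung tumor line. The series asks how Sin1, a subunit of the kinase complex mTORC2 encoded by Mapkap1, acts in tumor-associated macrophages, and how these cells differ from macrophages of the spleen.

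KO_TAM were 4 libraries of tumor-associated macrophages from C57BL/6 mice with LysMCre and Sin1 fl/fl, in which Cre is made from the lysozyme M locus throughout the myeloid lineage. WT_TAM were 4 libraries of tumor-associated macrophages from Sin1 fl/fl mice with no Cre. WT_SP were 3 libraries of splenic macrophages, also from Sin1 fl/fl mice with no Cre. All mice were 6 to 8 weeks old, received LLC cells under the skin, and had cells sorted on day 14, so every group carried the floxed alleles and a tumor. The sort gates were CD45+ Ly6G- Ly6C- CD11b+ F4/80+ for tumors, and CD45+ TCRβ- Ly6G- Ly6C- F4/80+ with low CD11b for spleens. Whether the libraries come from different mice is not stated in the labels, and p-values therefore reflect spread among libraries, which may be technical.

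Entry into mitosis is driven by CDK1 bound to A- and B-type cyclins, and kinases of the Aurora and Polo families then build the spindle and prepare the chromosomes. Kinetochores attach chromosomes to spindle fibers, the spindle checkpoint holds the anaphase-promoting complex until all are attached, and kinesins and cytokinesis proteins then divide the cell. Transcripts of these genes accumulate late in the cell cycle, so they are widely used as markers of dividing cells. Part of this timing runs through promoter elements, chiefly the cell cycle genes homology region (CHR), bound by the MuvB complexes with B-Myb and FOXM1, and CCAAT boxes, bound by NF-Y.

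Promoters are shown as a description of the members, and their part in the log2 fold changes was not tested. Promoter windows from RefSeq (build GRCm38.p6), each 250 bases before to 50 after a gene's start, were found for 34 of 41 members, as 36 windows. CHR letters were searched as TTTGAA and TTCAAA, its reverse complement, and the variant TTTAAA, which is its own reverse complement, was searched alone. The CCAAT box was searched as CCAAT and ATTGG, its reverse complement. Neither element contains the other's letters. CHR letters were in 29 of 36 member windows (80.6%), against 5878 of 32851 windows of all genes (17.9%). TTTAAA was in 9 of 36 member windows (25%) and in 13.2% of all windows. CCAAT letters were in 29 of 36 (80.6%) and in 37.4% of all, and a CHR or TTTAAA together with CCAAT was in 27 of 36 (75%) and in 10.7% of all. Such matches are descriptions of the letters and not bound sites. Windows of Aurkb, Ccna2, Cdc25c, Foxm1, Incenp, Kif20a and Tpx2 were not analysed here. The stretches printed below end at the base before the start, read 5′ to 3′, with CHR, TTTAAA and CCAAT letters in capitals. They are those of Cdk1 (chr10:69352913-69353032, minus strand), Ccnb1 (chr13:100786487-100786606, minus strand), Cdc20 (chr4:118437344-118437463, minus strand), Ube2c (chr2:164769809-164769928, plus strand) and Top2a (chr11:99024190-99024309, minus strand), and of the members with the largest and the lowest change between tumor and spleen, Anln (chr9:22389207-22389326, minus strand) and Ndc80 (chr17:71526858-71526977, minus strand).
Cdk1: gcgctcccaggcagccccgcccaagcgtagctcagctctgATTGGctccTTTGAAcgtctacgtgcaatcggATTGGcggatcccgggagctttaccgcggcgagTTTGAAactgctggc
Ccnb1: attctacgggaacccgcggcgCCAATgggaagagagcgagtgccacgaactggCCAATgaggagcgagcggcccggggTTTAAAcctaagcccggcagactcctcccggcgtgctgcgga
Cdc20: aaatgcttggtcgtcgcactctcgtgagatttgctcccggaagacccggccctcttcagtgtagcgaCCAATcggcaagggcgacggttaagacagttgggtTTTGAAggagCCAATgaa
Ube2c: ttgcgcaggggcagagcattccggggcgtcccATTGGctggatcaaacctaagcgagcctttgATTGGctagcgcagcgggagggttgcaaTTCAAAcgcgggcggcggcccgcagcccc
Top2a: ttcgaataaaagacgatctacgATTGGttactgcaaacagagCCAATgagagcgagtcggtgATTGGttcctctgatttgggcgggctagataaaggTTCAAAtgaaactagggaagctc
Anln: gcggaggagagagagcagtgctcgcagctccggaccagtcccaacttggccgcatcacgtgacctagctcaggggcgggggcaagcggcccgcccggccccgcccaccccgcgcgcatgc
Ndc80: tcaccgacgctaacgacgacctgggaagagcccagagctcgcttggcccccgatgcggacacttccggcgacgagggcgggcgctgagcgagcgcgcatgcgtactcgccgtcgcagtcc
Cdk1, Cdc20, Ube2c and Top2a hold CHR letters close to the start with CCAAT letters before them, in Cdc20 also after them, and Ccnb1 holds TTTAAA in that place. Anln and Ndc80 hold none of these letters in the stretch shown, and their CHR letters lie after the start. Other members not printed here also lack this layout. Aurka, Bub1b, Cdca3, Cdca8, Cenpe, Hmmr, Kif23, Kif4, Racgap1, Spc25 and Ttk hold CHR or TTTAAA letters only after the start. Bub1, Nek2, Nuf2 and Nusap1 hold neither of these in their windows.

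Values are in CPM, recovered reads scaled to a common library size by total and by the authors' size factor, and are compared only within a table. Library totals lay between 7639550 reads (WT_TAM4) and 13118534 (KO_TAM1). Mapkap1 itself, read as a check of the labels, averaged 46.8 CPM in KO_TAM (SD 4.96, n = 4) against 57.0 CPM in WT_TAM (SD 18.1, n = 4), a difference that did not pass limma (adjusted p = 0.658). The labels do not name the deleted exon, so the total of the gene does not check the deletion. In 14 of the 41 members, exons overlap another gene, for example Ccna2 with Exosc9, Cdc20 with Elovl1, Kif20a with Cdc23 and Ube2c with Tnnc2. No source used here says whether counting used strand, so reads of such pairs cannot be told apart.

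In KO_TAM against WT_TAM, all 41 mitosis genes had a lower mean log2 level, with a median log2 fold change of -1.08, against 0.01 for all genes tested. The range ran from -1.59 for Foxm1 to -0.29 for Incenp. None passed limma after Benjamini-Hochberg adjustment over all genes (threshold 0.05), and no gene in the table did (0% higher, 0% lower). At an unadjusted p under 0.05, 31 of 41 members were lower and 0 higher, against 9.67% of all genes lower and 8.67% higher. With limma voom 0 members passed the adjustment either. In 24 of 41 members every KO_TAM library lay below every WT_TAM library, which was so for 8.67% of all genes. In 0 members every KO_TAM library lay above (6.39% of all genes). In bulk libraries, fewer dividing cells and less of these transcripts per dividing cell cannot be told apart. Members are measured in the same 8 libraries, so their count adds no replicates.

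**Figure D1:**
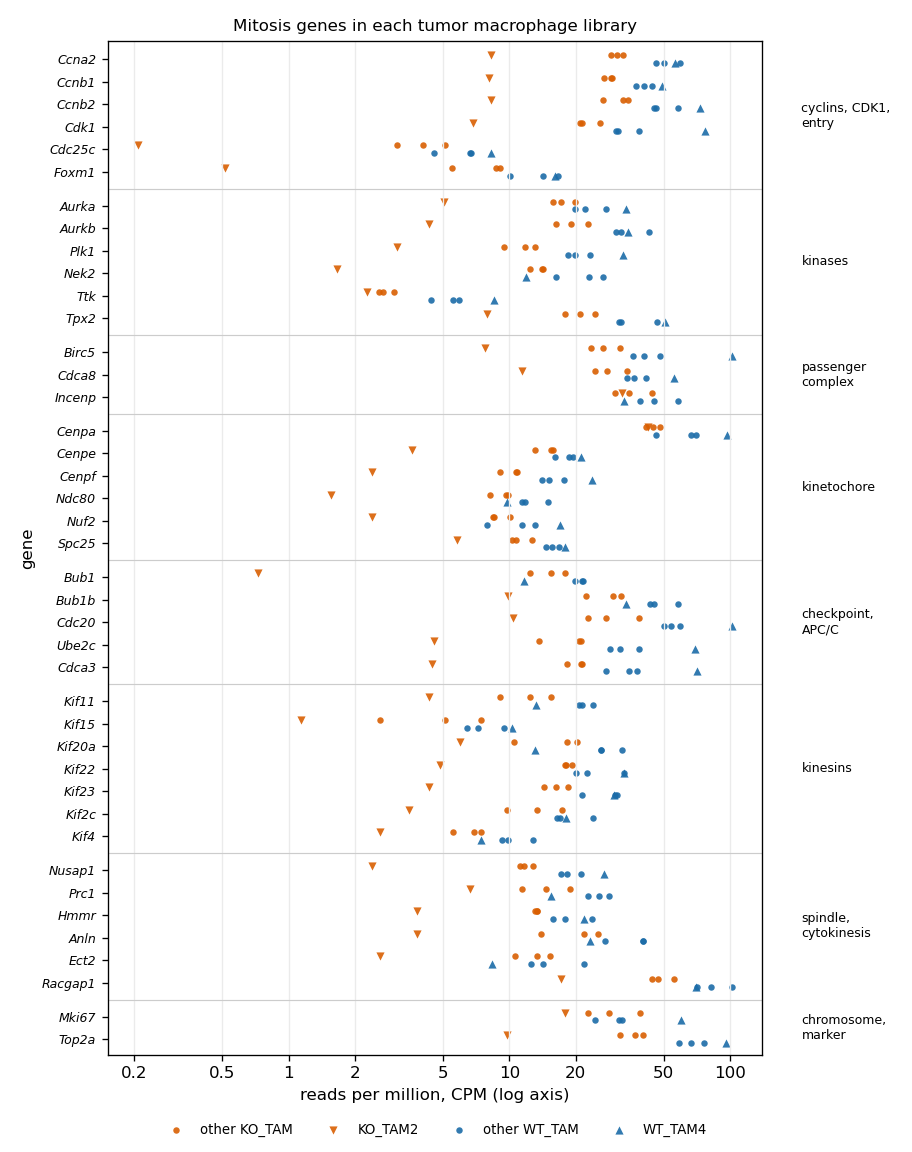
Level of each of the 41 mitosis genes in CPM (log axis) in the 4 KO_TAM and the 4 WT_TAM libraries, 1 point per library, grouped by role. KO_TAM2 is the lowest of the KO_TAM points in 39 members, and the groups do not overlap in 24.

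Among cyclins, CDK1 and entry regulators, the median log2 fold change was -1.26, and in 5 of 6 genes the groups did not overlap. Foxm1, the transcription factor of late cell cycle genes, had 9.07, 0.517, 8.69 and 5.47 CPM in KO_TAM1 to 4, against 16.6, 14.2, 10.1 and 16.1 CPM in WT_TAM1 to 4. KO_TAM2 stood far below every other library, and the highest KO_TAM value was just under the lowest WT_TAM value. The log2 fold change of Foxm1 was -1.59 ± 0.62 (SE), with a limma adjusted p of 0.233, and was -0.85 without KO_TAM2. Cdk1, the kinase that starts mitosis, had 21.3, 6.82, 25.6 and 20.8 CPM in KO_TAM1 to 4, against 38.6, 31.0, 30.6 and 77.0 CPM in WT_TAM1 to 4. Its groups did not overlap either, KO_TAM2 being lowest and WT_TAM4 highest (log2 fold change -1.26 ± 0.43, limma adjusted p = 0.191). The cyclins that activate CDK1 had log2 fold changes of -1.23 ± 0.39 (Ccna2), -1.03 ± 0.37 (Ccnb1) and -1.26 ± 0.41 (Ccnb2), none past the test and none with overlapping groups. Cdc25c, the phosphatase that removes inhibitory phosphates from CDK1, had the fewest reads of any member in 1 library, 2 reads in KO_TAM2, which is 0.207 CPM with an exact 95% Poisson interval of 0.0250 to 0.747 CPM for counting error only. Its groups overlapped, and its log2 fold change was -1.28 ± 0.58.

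Mitotic kinases and their partners had a median of -1.17, and in 4 of 6 the groups did not overlap. Plk1, the Polo-like kinase of spindle assembly, averaged 9.35 CPM in KO_TAM (SD 4.42, n = 4) against 23.6 CPM in WT_TAM (SD 6.51, n = 4), and its log2 fold change was -1.42 ± 0.40 with a limma adjusted p of 0.146. Aurkb, the Aurora kinase of the chromosomal passenger complex, had -1.34 ± 0.43, and Aurka, the Aurora kinase of the spindle poles, -0.93 ± 0.39 with overlapping groups. Tpx2, the spindle factor that activates Aurora A, had -1.23 ± 0.34. Nek2, a kinase of centrosome separation, had -1.12 ± 0.58 with overlapping groups. Ttk, a kinase of the spindle checkpoint, had 2.67, 2.27, 3.01 and 2.56 CPM in KO_TAM1 to 4, against 5.57, 5.94, 4.40 and 8.52 CPM in WT_TAM1 to 4. Its KO_TAM libraries lay close together, KO_TAM2 included, and all were below the lowest WT_TAM library (log2 fold change -1.05 ± 0.27, limma adjusted p = 0.130). Without KO_TAM2 the log2 fold change of Ttk was -0.99.

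The chromosomal passenger complex members did not all stand at the same distance. Birc5 (survivin), which targets the complex to centromeres, had 23.4, 7.75, 26.5 and 31.7 CPM in KO_TAM1 to 4, against 48.4, 36.4, 40.6 and 102 CPM in WT_TAM1 to 4. These groups did not overlap, with WT_TAM4 high by itself (log2 fold change -1.37 ± 0.45, limma adjusted p = 0.182). Cdca8 (borealin) had a log2 fold change of -0.85 ± 0.32 and overlapping groups. Incenp, the scaffold of the complex, had 44.1, 32.4, 30.2 and 34.7 CPM in KO_TAM1 to 4, against 58.1, 45.3, 38.9 and 33.0 CPM in WT_TAM1 to 4. Its groups overlapped, KO_TAM2 was not the lowest, and it had the change closest to 0 of all members (-0.29 ± 0.22, limma adjusted p = 0.471).

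Kinetochore and centromere genes had a median of -0.81, and in 3 of 6 the groups did not overlap. Cenpa, the histone H3 variant that marks centromeres, had 41.5, 42.5, 48.0 and 45.0 CPM in KO_TAM1 to 4, against 70.1, 46.2, 66.5 and 96.7 CPM in WT_TAM1 to 4. The KO_TAM libraries were nearly level, KO_TAM2 among them, and only KO_TAM3 passed the lowest WT_TAM library, WT_TAM2. The log2 fold change of Cenpa was -0.61 ± 0.22, with a limma adjusted p of 0.212. Cenpf, a large protein of the outer kinetochore, had -1.21 ± 0.42 and Cenpe, the kinetochore kinesin, -0.81 ± 0.41. Of the Ndc80 complex, which grips spindle fibers, Ndc80 had -0.91 ± 0.48, Nuf2 -0.82 ± 0.42 and Spc25 -0.74 ± 0.25, and Spc25 alone of these had groups that did not overlap.

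Genes of the spindle checkpoint and the anaphase-promoting complex had the lowest median of the roles, -1.48. Ube2c, the ubiquitin-conjugating enzyme of the complex, had 20.6, 4.55, 21.2 and 13.7 CPM in KO_TAM1 to 4, against 38.8, 28.6, 31.7 and 69.6 CPM in WT_TAM1 to 4. Cdc20, its activator in anaphase, had 27.4, 10.3, 22.6 and 38.7 CPM in KO_TAM1 to 4, against 59.6, 54.0, 50.4 and 102 CPM in WT_TAM1 to 4. Neither gene overlapped between the groups, and in both KO_TAM2 was lowest and WT_TAM4 highest. Log2 fold changes were -1.58 ± 0.46 for Ube2c (limma adjusted p = 0.158) and -1.49 ± 0.38 for Cdc20 (limma adjusted p = 0.128, the lowest among the members). Without KO_TAM2 they were -1.10 for Ube2c and -1.13 for Cdc20. Cdca3, a substrate of the complex that takes part in mitotic entry, had -1.48 ± 0.48, and Bub1b (BubR1), which inhibits it until attachment is complete, -1.04 ± 0.35. Bub1, a checkpoint kinase, had 7 reads in KO_TAM2 and overlapping groups, and its log2 fold change was -1.17 ± 0.74 with all libraries and -0.26 without KO_TAM2.

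**Figure D2:**
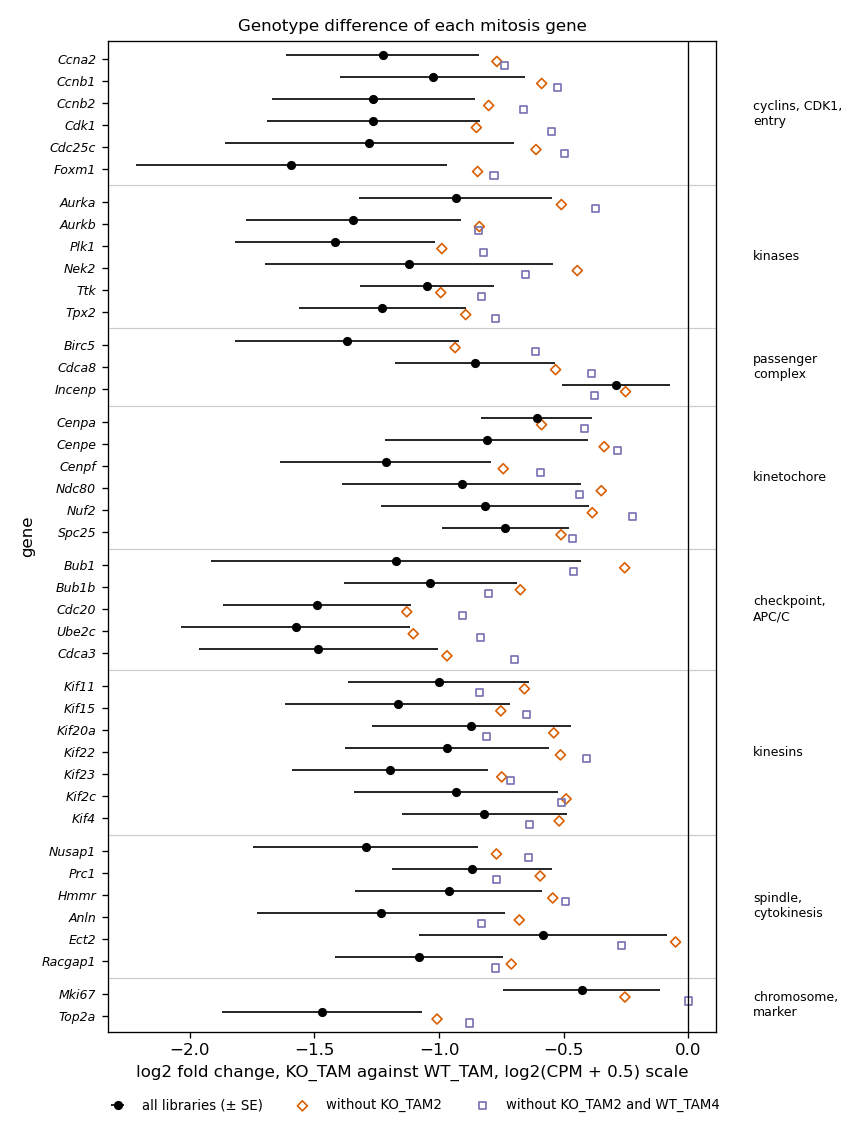
Log2 fold change of KO_TAM against WT_TAM for each mitosis gene (x axis), with all libraries (bars show the SE), without KO_TAM2, and without KO_TAM2 and WT_TAM4. All 41 values with all libraries lie left of 0, with a median of -1.08, and the medians of the other series are -0.66 and -0.64.

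Kinesins had a median of -0.97, and in 3 of 7 the groups did not overlap, namely Kif22, Kif23 and Kif4. Kif23, which forms the centralspindlin complex of the midzone with Racgap1, had the lowest value, -1.20 ± 0.39, and Kif4, a chromosome-bound kinesin, the value closest to 0, -0.82 ± 0.33. Kif11, the motor that pushes spindle poles apart, had -1.0 ± 0.36, Kif15, which can act beside it, -1.17 ± 0.45, and Kif2c, which depolymerizes spindle fibers, -0.93 ± 0.41. Kif20a, a cytokinesis kinesin, had -0.87 ± 0.40 and Kif22, a chromosome-bound kinesin, -0.97 ± 0.41. None of the 7 passed limma after adjustment.

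Spindle and cytokinesis genes had a median of -1.02. Nusap1, a spindle fiber bundler, had -1.29 ± 0.45, Hmmr, a spindle assembly factor, -0.96 ± 0.38 and Racgap1 -1.08 ± 0.34, all with groups that did not overlap. Anln (anillin), a scaffold of the contractile ring, had 25.3, 3.82, 21.7 and 13.8 CPM in KO_TAM1 to 4, against 40.5, 40.1, 27.2 and 23.1 CPM in WT_TAM1 to 4. WT_TAM4 was its lowest WT_TAM library and lay below KO_TAM1, so the groups overlapped (-1.23 ± 0.50, limma adjusted p = 0.241). Prc1, which bundles midzone fibers, had -0.87 ± 0.32 with overlapping groups. Ect2, which activates RhoA for cleavage, had 15.3, 2.58, 10.6 and 13.3 CPM in KO_TAM1 to 4, against 21.8, 14.2, 12.5 and 8.37 CPM in WT_TAM1 to 4. Its groups overlapped widely, and its log2 fold change of -0.58 ± 0.50 (limma adjusted p = 0.527) was -0.05 without KO_TAM2.

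Mki67 and Top2a, the most used markers of proliferation, did not show the same picture. Top2a, the topoisomerase that untangles sister chromosomes, had 37.1, 9.72, 40.2 and 31.7 CPM in KO_TAM1 to 4, against 76.2, 66.6, 58.9 and 96.1 CPM in WT_TAM1 to 4. Mki67, whose protein coats mitotic chromosomes, had 22.6, 17.9, 28.2 and 39.2 CPM in KO_TAM1 to 4, against 31.5, 24.4, 32.4 and 60.0 CPM in WT_TAM1 to 4. Top2a did not overlap between the groups, whereas KO_TAM3 and KO_TAM4 lay within the WT_TAM range of Mki67. Log2 fold changes were -1.47 ± 0.40 for Top2a (limma adjusted p = 0.137) and -0.43 ± 0.31 for Mki67 (limma adjusted p = 0.461). Without KO_TAM2 and WT_TAM4, that of Mki67 was 0.00, and that of Top2a was -0.88.

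Per kilobase of gene length, the scale on which genes can be compared, Cenpa had the highest mean level, with 49.3 CPM per kb in KO_TAM and 77.8 CPM per kb in WT_TAM. Birc5 followed with 26.9 CPM per kb in KO_TAM and 68.5 in WT_TAM, and Ube2c with 19.9 in KO_TAM and 55.9 in WT_TAM. Cenpf was at the low end, with 0.740 CPM per kb in KO_TAM and 1.59 in WT_TAM. Cenpa was thus the highest of the members in both groups on this scale, and it was among those with the smallest log2 fold changes.

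Among the KO_TAM libraries, KO_TAM2 was the lowest in 39 of 41 members, the exceptions being Incenp and Cenpa, while it was the lowest in 35.9% of all genes tested. Its level was a median 0.269 of the mean of the other 3 KO_TAM libraries, against 0.976 over all genes, and ratios ran from 0.0476 for Bub1 to 0.947 for Cenpa. Summed over the members, the level was 799, 287, 757 and 817 CPM in KO_TAM1 to 4, against 1420, 1129, 1132 and 1564 CPM in WT_TAM1 to 4. All 4 KO_TAM sums were below all 4 WT_TAM sums, KO_TAM2 by the widest distance. Without KO_TAM2, all 41 members kept a lower mean, the median log2 fold change was -0.66, and 24 of 41 members had all KO_TAM below all WT_TAM libraries, against 9.61% of all genes, and 0 had all above (7.47%). In KO_TAM2 the summed macrophage list was 12057 CPM, against 22861 to 25284 CPM in the other KO_TAM libraries. Most of that difference was Lyz2, with 2744 CPM in KO_TAM2 against 11502 to 15235 CPM in the others. C1qa, C1qb and C1qc were also lower in KO_TAM2, while Adgre1 was higher, at 1472 against 590 to 705 CPM. The fibroblast list in KO_TAM2 was 30.9 against 92.8 to 241 CPM. The list of eosinophils, basophils and mast cells was 938 against 243 to 368 CPM. The part of these differences in the members' levels was not tested.

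WT_TAM4 was the shallowest library. It was the highest WT_TAM library in 22 members, with a median length of 2016 bases, and the lowest in 12 members, with a median length of 3428 bases and a range of 2135 to 4841 bases. The largest positive deviations from the mean of the other WT_TAM libraries, on the log2 scale, were 1.29 for Birc5, 1.20 for Cdk1 and 1.09 for Cdca3. The lowest were -1.07 for Kif20a, -0.87 for Ect2 and -0.83 for Nek2. The 4 longest members were above 0 as well, namely Kif15 (0.41), Cenpe (0.22), Mki67 (1.02) and Cenpf (0.59), as was Top2a (0.52), so the longest genes did not follow the order by length. Spearman's rho of this deviation with length was -0.51 over the 41 members and -0.30 over 11918 genes, values across genes of the same libraries that are given as a description. Its part in the comparison was not tested.

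**Figure D3:**
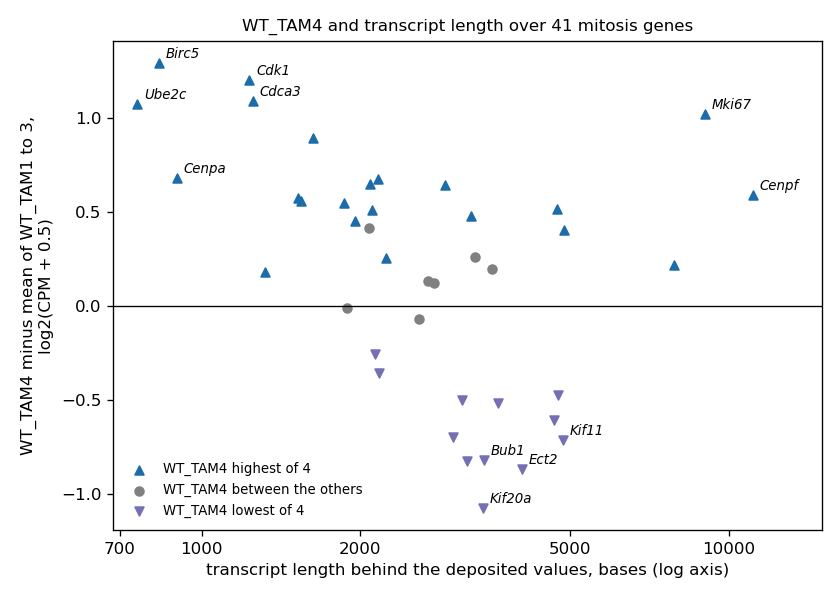
Log2 level of each mitosis gene in WT_TAM4 minus the mean of WT_TAM1 to 3 (y axis) against gene length in bases (x axis, log scale), 1 point per gene. Short genes such as Birc5 (1.29) lie above 0 and several of intermediate length such as Kif20a (-1.07) below it, while the 4 longest, Kif15 (0.41), Cenpe (0.22), Mki67 (1.02) and Cenpf (0.59), lie above it.

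Without both KO_TAM2 and WT_TAM4, 40 of 41 members had a lower mean in KO_TAM, with a median log2 fold change of -0.64, and in 31 of 41 every KO_TAM library was below every WT_TAM library, against 13.3% of all genes, with 0 above (9.86%). In that fit of 3 libraries against 3, limma called 21 genes higher and 44 lower after adjustment, and 2 members were among the lower ones. They were Ccna2, with a log2 fold change of -0.74 (limma adjusted p = 0.0484), and Top2a, with -0.88 (limma adjusted p = 0.0388). Over all alternatives the limma adjusted p lay between 0.0484 and 0.286 for Ccna2 and between 0.0388 and 0.26 for Top2a. When each library was given a weight by its fit, 138 of the 12830 genes tested were called higher and 235 lower. Of the members, 5 were then called lower, namely Tpx2 (-0.90), Bub1b (-0.93), Cdc20 (-1.08), Racgap1 (-0.91) and Top2a (-1.0).

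Further genes of mitosis, from a list of 117 with 111 tested, had 28 positive and 83 negative log2 fold changes, a median of -0.45, and 0 calls. Fam64a (Pimreg), a proliferation-linked regulator of anaphase, had -1.90 ± 0.41 and Cks1b, a CDK-binding subunit, -1.53 ± 0.42, the lowest of the list. The highest were Lin54, the CHR-binding subunit of MuvB, with 0.66, and Cenpl, a centromere protein, with 0.63. By complex, the median was -0.77 for other spindle, kinesin and cytokinesis genes, -0.57 for entry regulators and -0.47 for kinetochore genes. It was -0.15 for condensin and cohesin and -0.12 for checkpoint and anaphase-promoting complex genes. DNA replication genes had negative log2 fold changes in all 39 tested, with a median of -0.64, from -1.71 ± 0.51 for Tk1, a nucleotide salvage kinase, to -0.06 for Pcna, the replication clamp. G1 cyclins and CDK inhibitors had 12 positive and 9 negative values and a median of 0.04, with E2f7 at -1.54, Cdkn2c at -1.51, Ccnd3 at 0.45 and Rbl2 at 0.90. No gene of these lists passed limma after adjustment.

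Markers of other cells also differed between KO_TAM and WT_TAM. The summed list of 12 macrophage markers, led by Lyz2 and the C1q chains, was 12057 to 25284 CPM in KO_TAM and 33944 to 55326 CPM in WT_TAM, with 4 means higher and 8 lower. Lyz2 is also the locus that carries the Cre insertion. All 9 fibroblast markers had a lower mean in KO_TAM, where their sum was 30.9 to 241 CPM, against 397 to 875 CPM in WT_TAM. The sum of 5 hematopoietic progenitor markers was 30.9 to 64.1 CPM in KO_TAM and 95.9 to 166 CPM in WT_TAM, with 2 means higher and 3 lower. Cd34 made up most of that sum, at 3.51 to 51.1 CPM in KO_TAM and 80.5 to 151 CPM in WT_TAM. The list of 11 erythroid markers, of a lineage that also divides, summed to 53.0 to 289 CPM in KO_TAM and 174 to 757 CPM in WT_TAM, with 3 means higher and 8 lower. Its globin genes had log2 fold changes between -2.68 (Hba-a2) and -2.11 (Hbb-bs), none past limma after adjustment. Neutrophil markers summed to 353 to 793 CPM in KO_TAM and 97.0 to 274 CPM in WT_TAM, with 10 means higher and 2 lower. Mmp9, Mmp8 and Csf3r made up most of that sum, and most other markers of the list, Ly6g and Elane among them, were at or near 0. Monocyte markers overlapped as a sum, with 2060 to 5030 CPM in KO_TAM and 1387 to 2517 CPM in WT_TAM, and 5 means were higher and 1 lower. The list of eosinophils, basophils and mast cells summed to 243 to 938 CPM in KO_TAM and 19.8 to 171 CPM in WT_TAM. Siglecf and Ccr3 led this sum, and Epx was near 0. Of the list, 4 means were higher and 3 lower, among the latter Cpa3 with a log2 fold change of -1.87. Endothelial markers summed to 80.6 to 144 CPM in KO_TAM and 42.0 to 65.2 CPM in WT_TAM, with 2 means higher and 4 lower. Most of that sum was Pecam1, which myeloid cells also express, at 64.8 to 129 CPM in KO_TAM and 19.1 to 50.2 CPM in WT_TAM, while Cdh5 and Tek were near 0. Markers of tumor or epithelial cells overlapped as a sum, with 187 to 404 CPM in KO_TAM and 176 to 357 CPM in WT_TAM. Its leading genes differed in sign, as Sox9 had 7.03 to 26.1 CPM in KO_TAM and 48.0 to 97.6 CPM in WT_TAM (log2 fold change -2.20, limma adjusted p = 0.102), while Cdh1 had a log2 fold change of 0.43. Krt8, Krt7 and Cldn4 were near 0, and Epcam was at 0.418 to 3.79 CPM in KO_TAM and 1.19 to 2.17 CPM in WT_TAM. Reads from the mitochondrial genome made up 0.432% to 1.85% in KO_TAM and 1.12% to 6.58% in WT_TAM. The part of these cells and measures in the members' levels was not tested.

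In WT_TAM against WT_SP, 40 of 41 mitosis genes had a higher mean log2 level in the tumor, with a median log2 fold change of 0.94, against -0.08 for all genes tested. Limma called 29 of 41 members higher and 0 lower after Benjamini-Hochberg adjustment, against 22.6% of all genes called higher and 24.1% lower. At an unadjusted p under 0.05, 32 members were higher and 0 lower, against 25.7% of all genes higher and 28.2% lower. In 23 members every WT_TAM library lay above every WT_SP library, which was so for 25.8% of all genes, and in 0 members every one lay below (30.4%). Without WT_TAM4 the first count was 28, against 33.7% of all genes, and the second 0, against 36.5%. The WT_TAM libraries are the same as in the genotype comparison, so the comparisons are not independent. The number of calls depended on the libraries and the scaling. It was 10 without WT_SP2, 13 without WT_SP3, 18 without WT_TAM1 and 34 without WT_TAM4, while 17.1%, 16.8%, 20.3% and 31.7% of all genes tested were called higher, in that order of settings. With the library total alone as the scale, it was 7 of 41 members, close to the 14.9% of all genes called higher there, and the median of the members was 0.48 while that of all genes was -0.52.

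**Figure D4:**
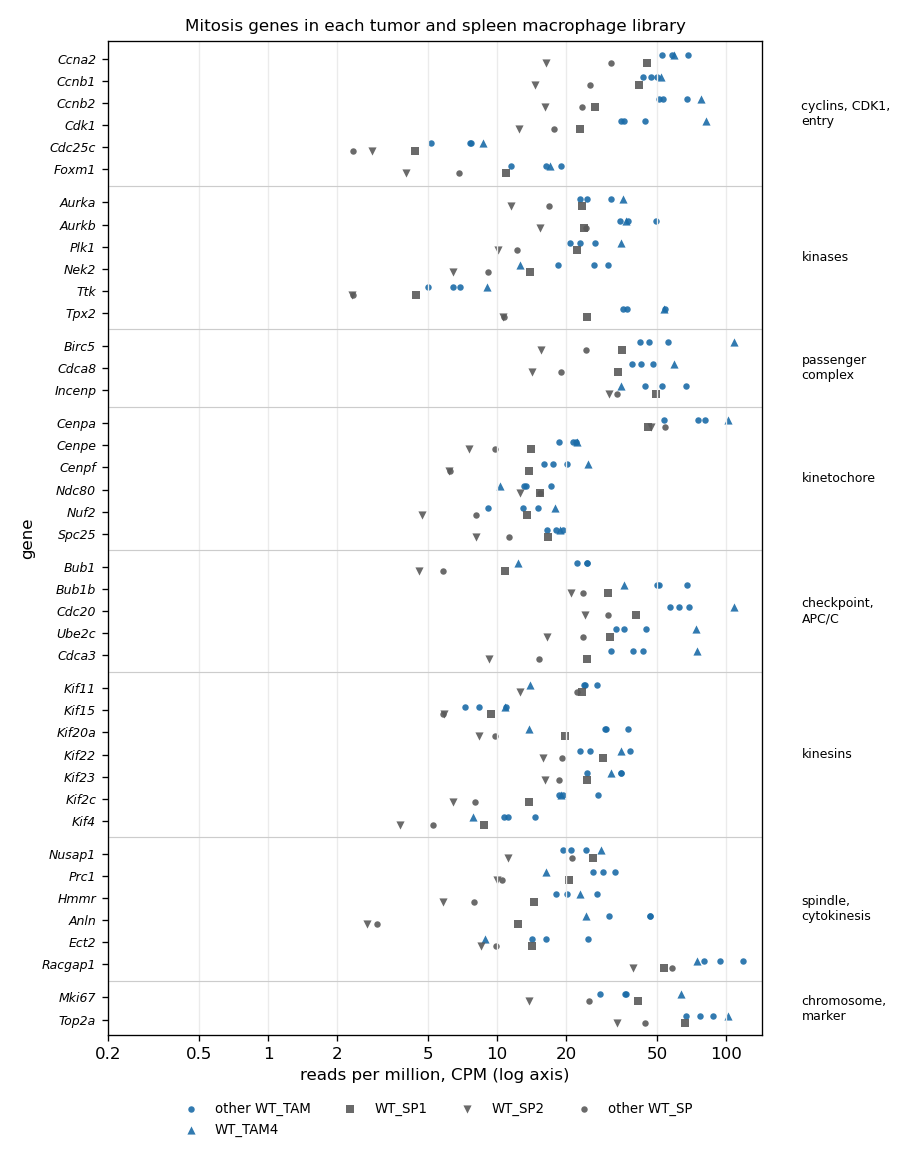
Level of each of the 41 mitosis genes in CPM (log axis) in the 4 WT_TAM and the 3 WT_SP libraries, 1 point per library, grouped by role. WT_TAM lies above WT_SP without overlap in 23 members, and WT_SP1 is the highest spleen point in 38.

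All 6 cyclins, CDK1 and entry regulators were called higher in WT_TAM, with a median log2 fold change of 1.13 and no overlap in any of the 6. Ccnb2 had the largest, 1.48 ± 0.24 (limma adjusted p = 0.0011). Foxm1 had 19.1, 16.4, 11.5 and 17.1 CPM in WT_TAM1 to 4, against 10.9, 4.01 and 6.82 CPM in WT_SP1 to 3. WT_SP1 came close to WT_TAM3, the lowest tumor library, and the log2 fold change was 1.17 ± 0.33 (limma adjusted p = 0.020). Of the kinases, 5 of 6 were called higher, with a median of 0.98. Tpx2 had 53.9, 37.0, 35.5 and 53.4 CPM in WT_TAM1 to 4, against 24.7, 10.7 and 10.8 CPM in WT_SP1 to 3, without overlap (1.60 ± 0.33, limma adjusted p = 0.0039). Aurka missed the threshold at 0.75 ± 0.27 (limma adjusted p = 0.051).

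All 5 genes of the spindle checkpoint and the anaphase-promoting complex were called higher in WT_TAM, with a median of 1.19 and no overlap. Bub1 had 24.7, 24.8, 22.4 and 12.3 CPM in WT_TAM1 to 4, against 10.9, 4.55 and 5.79 CPM in WT_SP1 to 3. WT_TAM4 was low among the tumor libraries but above all spleen libraries (1.54 ± 0.35, limma adjusted p = 0.0069). Ube2c had 44.7, 33.0, 35.9 and 73.6 CPM in WT_TAM1 to 4, against 31.2, 16.5 and 23.8 CPM in WT_SP1 to 3. WT_SP1 lay just under the lowest WT_TAM value, and the log2 fold change was 0.93 ± 0.32 (limma adjusted p = 0.042). In the chromosomal passenger complex, Birc5 had 55.7, 42.0, 46.0 and 108 CPM in WT_TAM1 to 4, against 35.0, 15.6 and 24.3 CPM in WT_SP1 to 3. It was called higher without overlap (1.28 ± 0.38, limma adjusted p = 0.022), as was Cdca8 (1.14), whereas Incenp, at 0.37 ± 0.27, was not called.

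Of the kinetochore genes, 2 of 6 were called higher in WT_TAM, Cenpe (1.01 ± 0.24) and Cenpf (1.21 ± 0.31). Ndc80 had 17.2, 13.1, 13.4 and 10.3 CPM in WT_TAM1 to 4, against 15.4, 12.6 and 15.4 CPM in WT_SP1 to 3. The spleen values lay inside the tumor range, and its log2 fold change of -0.11 ± 0.22 (limma adjusted p = 0.715) was the lowest of the members. Nuf2 (0.70 ± 0.37) and Spc25 (0.64 ± 0.25), of the same complex, were not called either. Cenpa had 80.8, 53.4, 75.4 and 102 CPM in WT_TAM1 to 4, against 45.7, 47.2 and 54.0 CPM in WT_SP1 to 3. Only WT_TAM2 lay within the spleen range, by a narrow margin, and the value of 0.63 ± 0.23 missed the threshold (limma adjusted p = 0.051). Per kilobase, Cenpa (86.8 CPM per kb in WT_TAM and 54.5 in WT_SP), Birc5 (75.8 in WT_TAM and 30.1 in WT_SP) and Ube2c (62.0 in WT_TAM and 31.6 in WT_SP) were again the highest.

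Of the kinesins, 4 of 7 were called higher, Kif20a (1.11 ± 0.40), Kif23 (0.66 ± 0.22), Kif2c (1.18 ± 0.29) and Kif4 (0.89 ± 0.32), and of these Kif2c alone had groups that did not overlap. Kif11 had 27.4, 23.9, 24.2 and 13.9 CPM in WT_TAM1 to 4, against 23.4, 12.7 and 22.3 CPM in WT_SP1 to 3. WT_TAM4 and WT_SP2 were both low, the groups overlapped, and the log2 fold change was 0.20 ± 0.31 (limma adjusted p = 0.618). Kif15 (0.40 ± 0.26) and Kif22 (0.52 ± 0.27) were not called.

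Of the spindle and cytokinesis genes, 4 of 6 were called higher, and Anln had the largest log2 fold change of all members. Anln had 46.6, 46.3, 30.9 and 24.4 CPM in WT_TAM1 to 4, against 12.4, 2.70 and 3.01 CPM in WT_SP1 to 3. Every tumor library was well above the highest spleen library, and the log2 fold change was 2.79 ± 0.49 (limma adjusted p = 0.0018). Hmmr (1.28 ± 0.31), Prc1 (0.94 ± 0.33) and Racgap1 (0.86 ± 0.22) were also called higher. Nusap1 had 24.4, 21.0, 19.3 and 28.5 CPM in WT_TAM1 to 4, against 26.4, 11.1 and 21.3 CPM in WT_SP1 to 3. Only WT_SP2 stood below the tumor libraries, and it was not called (0.31 ± 0.30, limma adjusted p = 0.429). Ect2, at 0.49 ± 0.35, was not called either.

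Top2a and Mki67 differed in this comparison too. Top2a had 87.8, 76.9, 66.7 and 102 CPM in WT_TAM1 to 4, against 66.0, 33.5 and 44.4 CPM in WT_SP1 to 3. It was called higher (0.83 ± 0.26, limma adjusted p = 0.028), although WT_SP1 nearly reached WT_TAM3. Mki67 had 36.3, 28.2, 36.7 and 63.4 CPM in WT_TAM1 to 4, against 41.3, 13.7 and 25.1 CPM in WT_SP1 to 3. WT_SP1 was above 3 of the 4 tumor libraries, and Mki67 was not called (0.68 ± 0.39, limma adjusted p = 0.186).

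**Figure D5:**
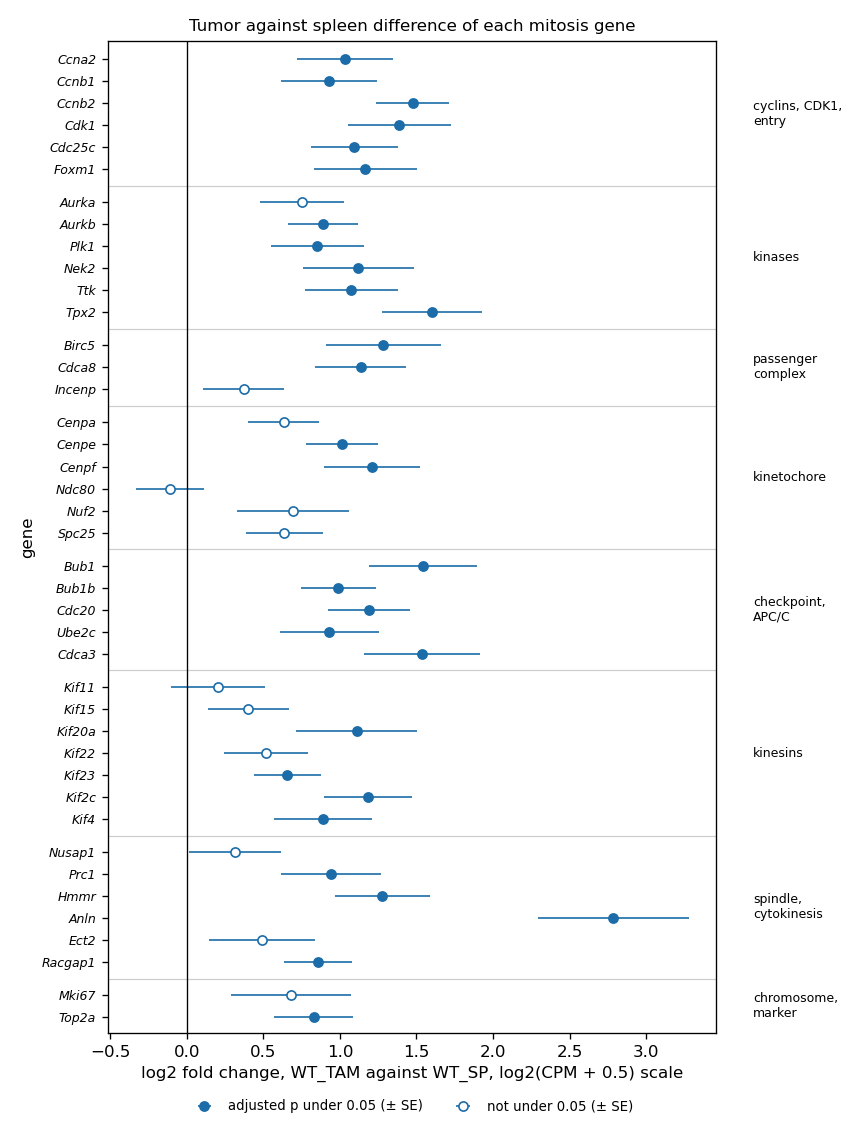
Log2 fold change of WT_TAM against WT_SP for each mitosis gene (x axis), with all libraries (bars show the SE). Filled points have a limma adjusted p under 0.05, and open points do not. Anln (2.79) lies farthest to the right, Ndc80 (-0.11) is the one member left of 0 with all libraries, and the median is 0.94.

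The spleen libraries held a set order across the members. WT_SP1 was the highest of the 3 in 38 members and WT_SP2 the lowest in 38, both at once in 36, against 36.7% and 33.6% of all genes. Summed over the members, the level was 1636, 1304, 1283 and 1654 CPM in WT_TAM1 to 4, against 1018, 539 and 734 CPM in WT_SP1 to 3. The sums did not overlap. Erythroid markers, of a lineage that divides in the mouse spleen, summed to 197 to 801 CPM in WT_TAM and 1095 to 5100 CPM in WT_SP. Within WT_SP, Hba-a1, an alpha globin gene, had 2078 CPM in WT_SP1, 493 in WT_SP2 and 433 in WT_SP3, so the library with the highest member levels also had the most globin reads. Below WT_SP1 the orders differed. Erythroid markers summed to 1463 CPM in WT_SP2 and 1095 CPM in WT_SP3, while the member sum was lower in WT_SP2. Plasma cell markers followed the members' order, with 3652, 2211 and 2909 CPM in WT_SP1 to 3. So did the fibroblast and the tumor or epithelial lists, at low levels. The macrophage list had this order too, within a narrow range, with 5602, 5250 and 5280 CPM in WT_SP1 to 3. The part of these lists in the members' levels was not tested.

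The sorted splenic cells also carried markers of other lineages. The 8 B cell markers summed to 16.6 to 92.7 CPM in WT_TAM and 6516 to 7527 CPM in WT_SP. T cell markers summed to 104 to 166 CPM in WT_TAM and 1650 to 1759 CPM in WT_SP, and neutrophil markers to 103 to 316 CPM in WT_TAM and 1107 to 3030 CPM in WT_SP. The macrophage list summed to 38445 to 58525 CPM in WT_TAM and 5250 to 5602 CPM in WT_SP, whereas red pulp macrophage markers were at 348 to 720 CPM in WT_TAM and 3570 to 4014 CPM in WT_SP. All 9 fibroblast markers had a higher mean in WT_TAM, with a sum of 449 to 1011 CPM, against 10.3 to 49.3 CPM in WT_SP. Markers of tumor or epithelial cells summed to 187 to 413 CPM in WT_TAM and 12.1 to 20.2 CPM in WT_SP. The hematopoietic progenitor list summed to 110 to 192 CPM in WT_TAM and 33.7 to 52.4 CPM in WT_SP, with Cd34 higher in WT_TAM and Kit and Myb lower. Reads from the mitochondrial genome made up 1.12% to 6.58% in WT_TAM and 0.837% to 1.09% in WT_SP, and 9 of 11 mitochondrial genes tested were called higher in WT_TAM. The part of these cells and measures in the members' difference between tumor and spleen was not tested.

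Of the further 111 mitosis genes tested, limma called 20 higher and 12 lower in WT_TAM than in WT_SP, both below the shares of all genes (22.6% higher and 24.1% lower), and their median log2 fold change was 0.13. Fam64a had 3.10 and Espl1, the separase that cuts cohesin, 2.29, the highest, while Cdc25b, a phosphatase of CDKs, had -1.62 and Lin52, a MuvB subunit, -1.36. Other spindle, kinesin and cytokinesis genes had 8 called higher and 2 lower of 23 tested (median 0.54). Condensin and cohesin genes had 2 called higher and 4 lower of 19 tested (median -0.18). DNA replication genes had 5 called higher and 2 lower of 40 tested, again below the shares of all genes (median 0.23), with Gins2 at 1.48 and Cdc45 at 1.10 highest, both parts of the replicative helicase, and Pold1, a replicative polymerase subunit, lowest at -1.55. Among 21 G1 cyclins and CDK inhibitors, 5 were called higher and 4 lower, near the shares of all genes. Cdkn1a (p21), which blocks CDKs, had 6.55 and Ccnd1, a D-type cyclin, 2.53, the highest, while Ccnd2, another D-type cyclin, had -1.41.

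Set side by side, the log2 fold changes of KO_TAM against WT_TAM and of WT_TAM against WT_SP were -1.48 and 1.19 as medians for the checkpoint and anaphase-promoting complex genes, -1.26 and 1.13 for cyclins and entry regulators, and -1.17 and 0.98 for kinases. They were -0.81 and 0.67 for kinetochore genes, -0.97 and 0.66 for kinesins, -1.02 and 0.90 for spindle and cytokinesis genes, and -0.95 and 0.76 for the pair of Mki67 and Top2a. The chromosomal passenger complex, at -0.85 and 1.14, had one of the smaller medians in KO_TAM against WT_TAM and one of the larger in WT_TAM against WT_SP. WT_TAM is the group compared in one and the group compared against in the other, so values that deviate in WT_TAM enter both with opposite sign.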

How the data were processed

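Groups, replicate numbers and protocols were taken from the labels. The submitters' processing notes name build mm10 and list DESeq2, HTSeq, SAMtools, TopHat2, HISAT and HISAT2. What each did, the settings and the annotation are not stated there. Deposited were 2 tables by the authors, whose values are no counts but a score: reads divided by gene length, library total and a size factor, then multiplied by a factor taken in turn down the rows, and divided by -1 where a gene had no length. Whole reads were recovered from these steps (within 0.0002 reads, or 1e-07 of the value) for all 35597 genes of the site table and 35083 of the genotype table. The 35 genotype genes that did not come out whole were left out, and 0 members were among them. No other columns were left out (0).

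Because the deposited unit is not counts, log2(CPM + 0.5) was fitted with limma 3.58.1 (statmod 1.5.0) in R 4.3.3 with trend and robust empirical Bayes, for each comparison in its own table. CPM divide the recovered reads by the library total times the size factor. The added 0.5 understates fold changes where reads are few. The filter kept genes with 15 reads in all and, in a number of libraries no smaller than the smaller group, the CPM that 10 reads give at the median library. Tests were two-sided, with Benjamini-Hochberg adjustment over all genes and a threshold of 0.05. Depth sets the precision of low members.

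The members and all gene lists were chosen with earlier results of these data known. Every member may be named. Values per library are given for the members with the 3 highest levels per length, the 3 largest and 3 smallest changes of each comparison, and Mki67, Top2a and Foxm1, and, chosen after their values were seen, for Cdk1, Ttk and, in the genotype comparison, Anln. Of other lists, the 2 lowest and 2 highest changes could be named. Alternatives were other scalings, filters, pseudocounts (2 CPM, or 0.1 on the deposited values), voom, library weights, the replicate block and leaving out libraries.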

Additional observations from a re-analysis of the deposited data

Results flagged for a closer look

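Each of the 41 members was examined in KO_TAM and in WT_TAM of the genotype comparison. In 7 cases, 1 library of a group of 4 stood apart from the other 3 by more than Dixon's 95% limit. Chance passes this limit in about 1 of 20 groups, so some of the cases can arise by chance, and members of the same libraries are not independent. KO_TAM2 was the low library in 6 of the 7 cases. It had 3.82 CPM of Hmmr, against 13.1 to 13.3 CPM in the other KO_TAM libraries, and 4.86 CPM of Kif22, against 17.9 to 19.3 CPM. Its cyclins were low in the same way, with 8.06 CPM of Ccnb1 against 26.7 to 29.1 CPM and 8.27 CPM of Ccna2 against 29.0 to 32.7 CPM. Nek2 was at 1.65 CPM in KO_TAM2, against 12.3 to 14.3 CPM, and Nusap1 at 2.38 CPM, against 11.1 to 12.8 CPM. The remaining case was Kif23 in the genotype table, with 21.4 CPM in WT_TAM2, against 29.8 to 30.6 CPM in the other WT_TAM libraries.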

How the results depend on the processing

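Counting error is wide for Cdc25c, Foxm1 and Bub1 in KO_TAM2, with 2, 5 and 7 reads. For KO_TAM against WT_TAM, 0 members were called under either other scaling, no filter on low reads, a pseudocount of 2 CPM, limma voom, the replicate block, the deposited values or with any 1 library left out. Without a filter on low reads 21 genes were called higher and 81 lower, with library weights 138 and 235, and without KO_TAM2 and WT_TAM4 21 and 44. Members called lower were 5 with library weights and 2 without KO_TAM2 and WT_TAM4. The median log2 fold change of the members lay between -1.26 and -0.66 with 1 library left out, and was -0.64 without both. Mki67 changed sign there (0.0011), so that 1 member was positive.

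For WT_TAM against WT_SP, the library total alone gave 2135 genes higher and 5629 lower, 7 members higher and a member median of 0.48, and the negative values of Incenp (-0.10), Kif11 (-0.26), Kif15 (-0.046) and Nusap1 (-0.15). Members called higher were 19 with upper quartile scaling and 18 on the deposited values, against 19.4% and 19.6% of all genes tested. They were 10 to 34 with 1 library left out, against 16.8% to 31.7% of all genes tested. With 1 library left out, Ndc80 lay between -0.23 and 0.0055 (without WT_TAM4), Kif11 between -0.071 (without WT_SP2) and 0.41, and Nusap1 between -0.040 (without WT_SP2) and 0.56. On the deposited values Ndc80 was at 0.064. Anln, Bub1, Ccnb2, Cdc20, Cdca3, Cdk1 and Tpx2 were called in all 15 settings run. The causes were not tested beyond what each setting changes.

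The labels call the WT and cKO mice paired without saying that a replicate number marks a pair. The numbers were not taken as pairs, since correlations of same-numbered libraries were not all above 0.1 and lay between -0.16 and 0.20 for KO_TAM with WT_TAM and between -0.09 and 0.10 for WT_TAM with WT_SP. With the replicate block, 0 members were called in the genotype comparison (median -1.08) and 36 in the site comparison. There 4480 genes (31.3% of those tested) were called higher and 4681 lower, and Ndc80 was at 0.0055. WT_TAM4 has no spleen library of its number, so the block leaves it out of the fold changes.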
